A study of Mus musculus with 12 samples.

Results

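The 10 genes described here encode proteins that coat lipid droplets or that build and break down triglyceride: Plin2, Plin4, Plin5, Cideb, Pnpla2, Lipe, Mgll, Dgat1, Dgat2 and Lpl. They were listed by function, and every probe set of the array annotated to 1 of these symbols alone was taken, 19 probe sets in all. For each gene the probe set with the highest mean over the 12 arrays stands for the gene, and the others serve as a check. All 10 genes lay above a log2 signal of 4 on at least 3 arrays and were among the 10435 genes tested, and 15 of the 19 probe sets passed that filter. The other 4, 1 each for Pnpla2, Lipe, Mgll and Dgat1, lay at background on all arrays and give no level.

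The arrays measured RNA of the left ventricle of 12 male C57BL/6 mice, 1 mouse per array and 3 per group. All mice were first operated on at 7 weeks of age. The AB mice carried a band around the aorta, which loads the left ventricle, for 4 weeks. The sAB mice had the sham operation in its place and were studied at the same time. The DB3 mice were banded for 4 weeks, debanded and studied 3 days later. The sDB3 mice are labelled as sham operated and then debanded, and were also studied 3 days after the later operation. AB and sAB mice therefore had 1 operation and sDB3 and DB3 mice had a second one shortly before the heart was taken. The pieces of ventricle hold all cell types of the wall, and a smaller share of a cell type cannot be told apart from less RNA per cell.

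The heart burns mostly fatty acids and keeps a small, fast-moving store of them as triglyceride in droplets. Lipoprotein lipase, made from Lpl, frees fatty acids from circulating lipoproteins at the capillary wall. Inside the cell the acyltransferases Dgat1 and Dgat2 add the last fatty acid to make triglyceride, the perilipins cover the droplet and control access to it, and the lipases Pnpla2, Lipe and Mgll remove the fatty acids in turn. Many of these genes are known targets of the PPAR nuclear receptors and answer to fasting.

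Upstream windows of 3 genes on which the results turn are shown, because Plin4 and Plin5 are neighbours and Pnpla2 encodes the lipase of the first step of triglyceride breakdown. Sequences come from RefSeq on GRCm38.p6, and 7 of the 10 genes have a window in that table (Dgat1, Dgat2 and Lpl do not). Plin4 (chr17:56100587-56109948) and Plin5 (chr17:56111597-56117606) lie on the minus strand with 1648 bases between them. Each window below is the part of the 250 bases before a transcript start that lies outside the span of the gene, at chr17:56109949-56110032 for Plin4, chr17:56117607-56117798 for Plin5 and chr7:141454938-141455187, on the plus strand, for Pnpla2. Capitals mark AGGTCA, the half-site of nuclear receptors such as the PPARs, on either strand.

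Plin4: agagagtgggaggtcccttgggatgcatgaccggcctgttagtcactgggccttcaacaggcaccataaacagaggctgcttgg

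Plin5: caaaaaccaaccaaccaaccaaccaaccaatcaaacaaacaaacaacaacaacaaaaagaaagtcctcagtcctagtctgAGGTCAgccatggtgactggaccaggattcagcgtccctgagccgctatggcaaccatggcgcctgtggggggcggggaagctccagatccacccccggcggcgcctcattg

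Pnpla2: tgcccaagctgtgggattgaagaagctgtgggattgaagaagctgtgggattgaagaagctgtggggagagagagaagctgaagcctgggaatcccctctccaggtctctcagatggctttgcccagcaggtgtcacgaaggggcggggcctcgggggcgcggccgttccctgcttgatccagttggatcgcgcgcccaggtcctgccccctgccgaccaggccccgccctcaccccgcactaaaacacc

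Among the 10 upstream windows of these genes, the half-site AGGTCA occurred in 2, those of Plin2 and Plin5, where 14% of 32851 windows of the same length held it. The full PPAR element, a direct repeat of AGGTCA with 1 base between the copies, which contains that half-site, occurred in 0 of the 10 windows and in 0.0335% of all. The E-box CACGTG (6.02% of all windows) and the forkhead motif TGTTTAC (3.17%) each occurred upstream of Lipe and of Mgll, and TATAAA (12.4%) upstream of Cideb. Both strands were searched, and a match is a run of letters, not a shown binding site.

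The sAB arrays stood apart in 1 of 3 spike-in controls examined. BioC, a bacterial sequence put into each hybridisation, had a mean log2 signal of 9.82 to 10.2 on the 3 sAB arrays and of 7.73 to 8.23 on the other 9, so that whatever set this control apart cannot be told apart from the operation wherever sAB is used. BioB (8.22 to 8.72 in sAB, 7.99 to 8.53 elsewhere) and BioD (11.44 to 11.70 in sAB, 11.62 to 11.96 elsewhere) overlapped between sAB and the rest. Because of BioC, AB was also set against sDB3. These groups differ by the second operation and the 3 days after it as well as by the band. The 2 cannot be told apart in that comparison. RNA integrity was read from Actb, whose 3' probe set exceeded its 5' probe set by 1.02 to 1.13 log2 units in AB, below all sAB and sDB3 arrays (up to 1.26), and by 1.11 to 1.32 in DB3. For Gapdh the same measure did not set AB apart. It was 0.028 to 0.034 in AB, -0.046 to 0.050 in sAB, -0.062 to 0.039 in sDB3 and 0.00014 to 0.044 in DB3. All 9 ventricular cardiomyocyte markers checked were above background, with a summed log2 level of 18.7 to 18.8 on every array. This sum was higher on all sDB3 arrays (18.81 to 18.84) than on the others (up to 18.77). In AB against sDB3 3 of the 9 markers were called lower and 0 higher, beside 22.0% of all genes called. The summed level of 7 atrial markers varied more, from 8.76 to 14.0, and was above 13 on AB replicate 3, sDB3 replicates 1 and 2 and DB3 replicate 2. Without these 4 arrays, which leaves 1 sDB3 mouse, the calls given below ended for all members except Plin5 in AB against sAB and Plin4 in DB3 against AB. The part of BioC, Actb and the cardiomyocyte markers in the results was not tested.

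**Figure D1:**
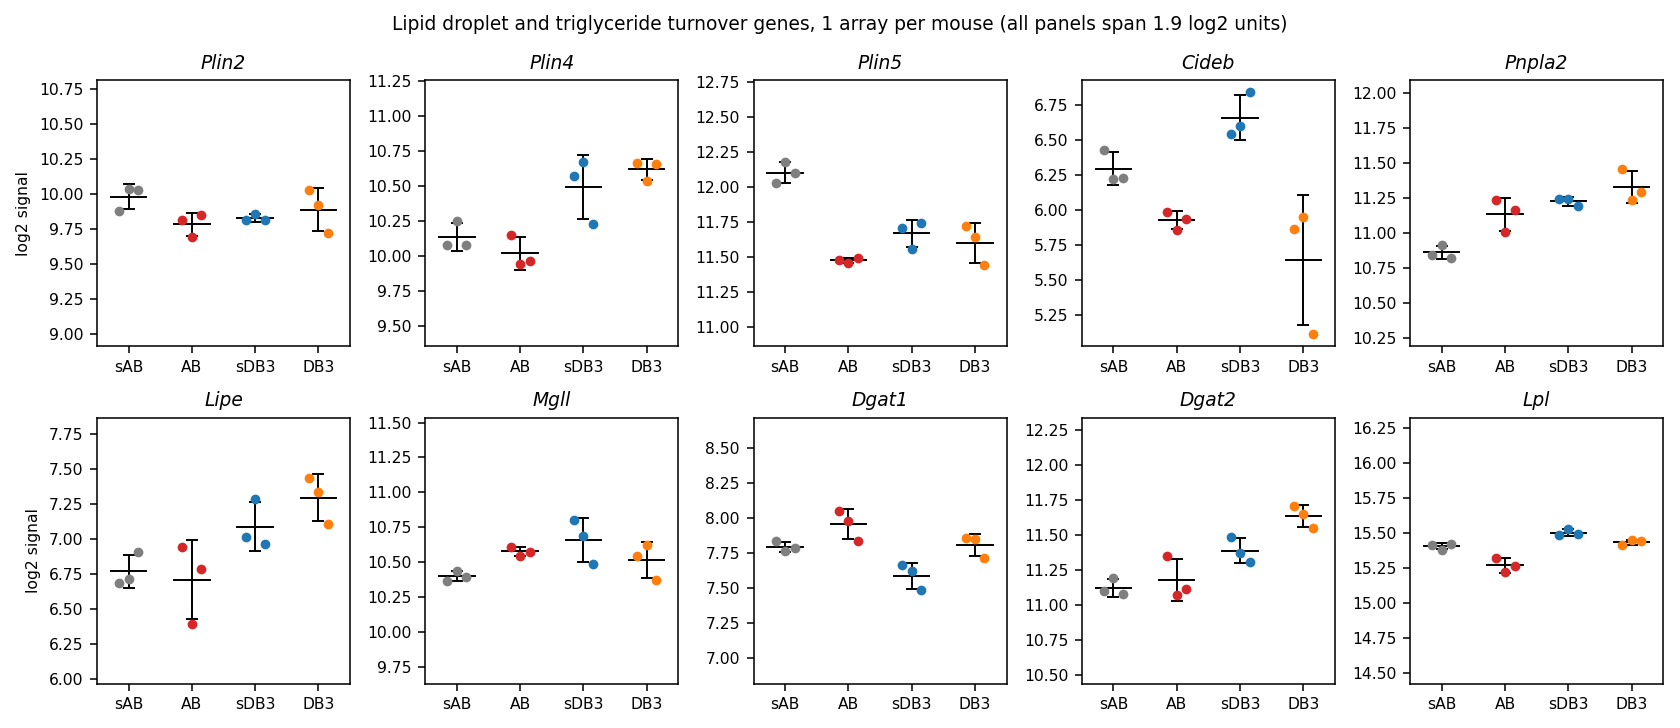
Log2 signal (vertical axes, of equal span in every panel) of the 10 genes in the sAB, AB, sDB3 and DB3 groups. Points are single mice, in order of replicate number, and bars are the mean and SD of 3 mice. Plin5 was highest in sAB, Pnpla2 lowest in sAB, and Plin4, Lipe and Dgat2 were higher in DB3 than in AB.

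Plin5 coats droplets in oxidative tissue and ties them to mitochondria. It had log2 signals of 12.03, 12.18 and 12.11 in sAB, 11.48, 11.46 and 11.50 in AB, 11.71, 11.56 and 11.74 in sDB3 and 11.72, 11.65 and 11.45 in DB3. Every sAB mouse lay above all 9 other mice, and the AB mice lay within a narrow range below all sDB3 mice. Plin5 was 1.54-fold lower in AB than in sAB (log2 difference -0.63 ± 0.083 (SE) with 3 mice in each group, adjusted p = 0.000736 by limma). It was also 1.35-fold lower in sDB3 than in sAB (-0.43 ± 0.083, adjusted p = 0.00821), while DB3 against sDB3 gave -0.068 ± 0.083 (95% interval -0.25 to 0.11, adjusted p = 0.635). The difference between the effects, DB3 against sDB3 minus AB against sAB, was 0.56 ± 0.12 (adjusted p = 0.026), a call that any 1 of 6 arrays carried: it ended without replicate 2 or 3 of sAB, replicate 2 or 3 of AB, or replicate 2 of sDB3 or of DB3 (largest adjusted p 0.0647).

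This result belongs to 1 of the 2 Plin5 probe sets. The one with the highest mean is of the type that Affymetrix marks as shared by more than 1 transcript. The other gave 10.65 ± 0.11 (SD, n = 3) in sAB, 10.56 ± 0.082 in AB, 10.77 ± 0.15 in sDB3 and 10.77 ± 0.069 in DB3, with every group overlapping sAB. Its log2 difference was -0.090 in AB against sAB (adjusted p = 0.537 over all probe sets) and 0.12, of opposite sign, in sDB3 against sAB (adjusted p = 0.399). With the mean of both probe sets the difference between the effects fell to 0.33 (adjusted p = 0.123) and the sDB3 against sAB difference to -0.16 (adjusted p = 0.198). Against sDB3, whose arrays share the BioC level of AB, the AB difference of the first probe set was -0.19 ± 0.083 (adjusted p = 0.118), which passed after median centring (-0.33, adjusted p = 0.0122).

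Plin4, a coat protein of nascent and small droplets found in muscle and fat, was highest in the groups studied after the second operation. Its log2 signals were 10.08, 10.26 and 10.08 in sAB, 10.15, 9.94 and 9.97 in AB, 10.57, 10.67 and 10.23 in sDB3 and 10.67, 10.54 and 10.66 in DB3. All DB3 mice lay above all AB mice and sAB and AB overlapped, as did sDB3 replicate 3 with sAB. Plin4 was 1.52-fold higher in DB3 than in AB (log2 difference 0.60 ± 0.11, adjusted p = 0.00971), and the call held without any single array (adjusted p 0.00305 to 0.0454). It was lower in AB than in sDB3 (-0.47 ± 0.11, adjusted p = 0.0151), a call that ended without AB replicate 2 or 3 or sDB3 replicate 2 (adjusted p up to 0.0584) and in a fit of those groups alone (adjusted p = 0.0529). Without the 5 arrays with Adipoq above a log2 value of 4, described below, that difference was -0.21 (adjusted p = 0.329), and without the 4 arrays high in atrial markers it was -0.19 (adjusted p = 0.527). The sDB3 against sAB difference, 0.35 ± 0.11, missed the threshold (adjusted p = 0.0517) and passed after median centring (0.44, adjusted p = 0.0355). Neither AB against sAB (-0.12 ± 0.11, adjusted p = 0.493) nor DB3 against sDB3 (0.13 ± 0.11, 95% interval -0.12 to 0.38, adjusted p = 0.504) passed.

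Plin2, the perilipin found on droplets of most cells, passed in no comparison made here. Group means ran from 9.79 ± 0.083 (SD, n = 3) in AB to 9.98 ± 0.091 in sAB, and the test over the 4 groups did not pass (limma F test adjusted p = 0.248). In AB against sAB the log2 difference was -0.20 ± 0.086 (95% interval -0.39 to -0.0072, adjusted p = 0.134).

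Cideb, a droplet protein known from liver, where it serves lipoprotein export, had the largest difference among the 10 genes. Its log2 signals were 6.43, 6.22 and 6.23 in sAB, 5.99, 5.85 and 5.93 in AB, 6.54, 6.59 and 6.84 in sDB3 and 5.87, 5.95 and 5.11 in DB3. Both groups that had been banded lay below both sham groups in every mouse, and DB3 replicate 3 lay well below the other arrays. In DB3 it was 2.02-fold lower than in sDB3 (log2 difference -1.02 ± 0.19, adjusted p = 0.0211), and the difference was -0.75 without DB3 replicate 3 (range of adjusted p over single arrays left out 0.0182 to 0.0486). The call ended in a fit of sDB3 and DB3 alone (adjusted p = 0.113). AB against sAB gave -0.37 ± 0.19 (adjusted p = 0.193), which passed in a fit of those groups alone (adjusted p = 0.028) and without DB3 replicate 3 (adjusted p = 0.025), and AB against sDB3 -0.73 ± 0.19 (adjusted p = 0.0194), the latter lost without AB replicate 2, AB replicate 3 or sDB3 replicate 3 (adjusted p up to 0.0651) or without the dim filter (adjusted p = 0.0592). The shams did not overlap either, and sDB3 against sAB gave 0.37 ± 0.19 (adjusted p = 0.187), which passed without DB3 replicate 3 (adjusted p = 0.0285). The difference between the effects was -0.65 ± 0.26 and did not pass (adjusted p = 0.161). The Cideb gene (chr14:55754052-55758424) overlaps Nop9 and Ltb4r2, and its only probe set is of the shared type, so signal from these genes cannot be told apart.

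Pnpla2 encodes adipose triglyceride lipase, which takes the first fatty acid off triglyceride. Its log2 signals were 10.84, 10.91 and 10.82 in sAB, 11.23, 11.00 and 11.16 in AB, 11.24, 11.24 and 11.19 in sDB3 and 11.46, 11.24 and 11.29 in DB3. All sAB mice lay below all 9 others. It was 1.29-fold higher in sDB3 than in sAB (log2 difference 0.36 ± 0.078, adjusted p = 0.0127). It was 1.21-fold higher in AB than in sAB (0.27 ± 0.078, adjusted p = 0.0333), but this call ended without any 1 of sAB replicates 1, 2 and 3 or AB replicates 1 and 3 (adjusted p up to 0.107) as well as after median centring (0.22, adjusted p = 0.0701) and in a fit of AB and sAB alone (adjusted p = 0.0562). AB against sDB3 gave -0.092 ± 0.078 (95% interval -0.26 to 0.082, adjusted p = 0.427) and DB3 against sDB3 0.11 ± 0.078 (adjusted p = 0.425). The split of sAB against the rest is also that of BioC.

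Lipe, hormone-sensitive lipase, acts on diglyceride after Pnpla2. Its log2 signals were 6.69, 6.72 and 6.90 in sAB, 6.95, 6.40 and 6.78 in AB, 7.01, 7.29 and 6.96 in sDB3 and 7.44, 7.33 and 7.11 in DB3. All sDB3 and DB3 mice lay above all AB and sAB mice, the smallest gap being that between AB replicate 1 and sDB3 replicate 3. It was higher in DB3 than in AB (log2 difference 0.58 ± 0.15, adjusted p = 0.0326), a call lost without AB replicate 2, AB replicate 3, DB3 replicate 1 or DB3 replicate 2 (adjusted p up to 0.11), without the filter on dim probe sets (adjusted p = 0.0879), in a fit of AB and DB3 alone (adjusted p = 0.0848) and in the unmoderated analysis (adjusted p = 0.0669). The sDB3 against sAB difference was 0.32 ± 0.15 (adjusted p = 0.15). AB against sDB3 gave -0.38 ± 0.15 (adjusted p = 0.0875). This difference passed after quantile normalization (-0.53, adjusted p = 0.0327) and after median centring (-0.51, adjusted p = 0.0325). Mgll, which splits the last monoglyceride, had group means of 10.40 ± 0.036 (SD, n = 3) in sAB, 10.58 ± 0.032 in AB, 10.66 ± 0.16 in sDB3 and 10.51 ± 0.13 in DB3. No comparison of Mgll passed, the nearest being sDB3 against sAB (0.26 ± 0.088, adjusted p = 0.0655), which passed after median centring (0.35, adjusted p = 0.0243). Its other 2 probe sets above background passed in no comparison.

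The acyltransferases are taken in turn. Dgat2, which is known for using newly made fatty acids, had log2 signals of 11.10, 11.19 and 11.08 in sAB, 11.35, 11.07 and 11.12 in AB, 11.49, 11.38 and 11.31 in sDB3 and 11.71, 11.65 and 11.55 in DB3. The DB3 mice lay above all 9 others, and sDB3 lay above sAB without overlap but overlapped AB. Dgat2 was 1.37-fold higher in DB3 than in AB (log2 difference 0.46 ± 0.087, adjusted p = 0.0104), a call that ended only without AB replicate 3 among the single arrays (adjusted p = 0.0512). DB3 against sDB3 gave 0.25 ± 0.087 (95% interval 0.055 to 0.44, adjusted p = 0.113) and sDB3 against sAB 0.27 ± 0.087 (adjusted p = 0.0563), the latter passing after median centring (0.35, adjusted p = 0.0235). AB against sDB3 gave -0.21 ± 0.087 (adjusted p = 0.107). This difference passed after median centring (-0.35, adjusted p = 0.0202) and with the mean of both probe sets (-0.25, adjusted p = 0.0466). The other Dgat2 probe set differed in the same direction, by 0.50 in DB3 against AB (adjusted p = 0.0107 over all probe sets) and by 0.54 in sDB3 against sAB (adjusted p = 0.00487). On that probe set, however, DB3 replicate 2 (11.03) lay below sDB3 replicate 2 (11.06). All AB mice lay above all sAB mice there (0.25, adjusted p = 0.0836 over all probe sets).

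Dgat1 is the isoform that re-esterifies fatty acids taken up or released. Its log2 signals were 7.84, 7.77 and 7.79 in sAB, 8.05, 7.98 and 7.84 in AB, 7.66, 7.62 and 7.49 in sDB3 and 7.86, 7.85 and 7.72 in DB3. Each banded group lay above its own sham without overlap, by a gap of only 0.0044 in AB against sAB and 0.055 in DB3 against sDB3. The log2 differences were 0.16 ± 0.077 in AB against sAB (adjusted p = 0.167) and 0.22 ± 0.077 in DB3 against sDB3 (adjusted p = 0.112), neither past the threshold. The only Dgat1 probe set above background is of the shared type. The sDB3 against sAB difference was -0.21 ± 0.077 (adjusted p = 0.0839). AB against sDB3 passed (0.37 ± 0.077, adjusted p = 0.0087), and this call ended after median centring (0.23, adjusted p = 0.0689) and after quantile normalization (0.25, adjusted p = 0.0565).

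Lpl, the source of lipoprotein lipase, had log2 signals of 15.42, 15.38 and 15.43 in sAB, 15.32, 15.22 and 15.26 in AB, 15.48, 15.53 and 15.49 in sDB3 and 15.42, 15.45 and 15.44 in DB3. The AB mice lay below all 9 others. Lpl was lower in AB than in sDB3 (log2 difference -0.23 ± 0.054, adjusted p = 0.0135), a call lost without AB replicate 2 (adjusted p = 0.0557) and after quantile normalization (-0.13, adjusted p = 0.123). AB against sAB gave -0.14 ± 0.054 (adjusted p = 0.0954), which passed after median centring (-0.19, adjusted p = 0.0476). It also passed without the dim filter, in the unmoderated analysis and with a trended, robust variance (adjusted p 0.0124, 0.0105 and 0.0077). After quantile normalization it did not pass (-0.093, adjusted p = 0.235). DB3 against AB gave 0.17 ± 0.054 (adjusted p = 0.0788). This difference passed without the dim filter, with the mean of both probe sets, in the unmoderated analysis and with a trended, robust variance (adjusted p 0.0148, 0.0129, 0.0137 and 0.00525). The second Lpl probe set gave -0.17 in AB against sAB (adjusted p = 0.125 over all probe sets), 0.40 in DB3 against AB (adjusted p = 0.00901), -0.45 in AB against sDB3 (adjusted p = 0.00312) and 0.28 in sDB3 against sAB (adjusted p = 0.0245).

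**Figure D2:**
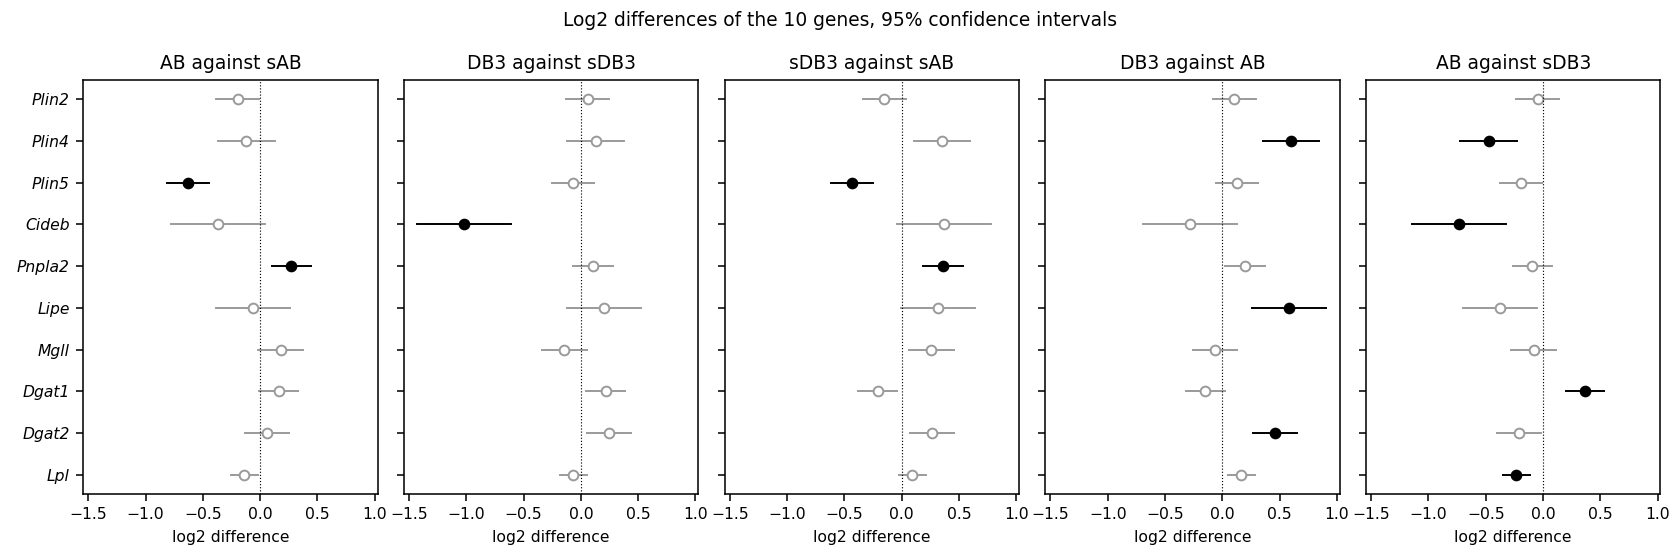
Log2 difference (horizontal axes) of the 10 genes in 5 comparisons, with 95% confidence intervals from the limma fit of 3 mice per group. Filled black points have an adjusted p under 0.05 over all genes tested. The most calls, 4, are in AB against sDB3, and the largest difference is that of Cideb in DB3 against sDB3, -1.02.

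For each comparison the members called are set beside the share of all genes called. In AB against sAB 2 of 10 passed (Plin5 lower, Pnpla2 higher), where 19.7% of all genes tested passed, and the median log2 difference was -0.090 for the 10 genes and 0.012 for all genes. In DB3 against sDB3 1 of 10 passed (Cideb, lower) beside 6.36% of all genes, with medians of 0.082 and 0.091. In the difference between these effects 1 passed (Plin5) beside 6.04%. In sDB3 against sAB 2 passed (Plin5 lower, Pnpla2 higher) beside 17.8%, with medians of 0.26 and -0.094. In DB3 against AB 3 passed, Plin4, Lipe and Dgat2, all higher, beside 9.16% of all genes in either direction and 4.04% higher, with medians of 0.15 and -0.017. In AB against sDB3 4 passed (Dgat1 higher, Plin4, Cideb and Lpl lower) beside 22.0%, with medians of -0.20 and 0.11. Several of these comparisons share arrays: sAB serves 2 of them, and AB and sDB3 serve 3 each besides the difference between effects, so that their values are not independent. Centring each array on its median took 0.14 from every difference in AB against sDB3 and 0.12 in DB3 against sDB3.

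**Figure D3:**
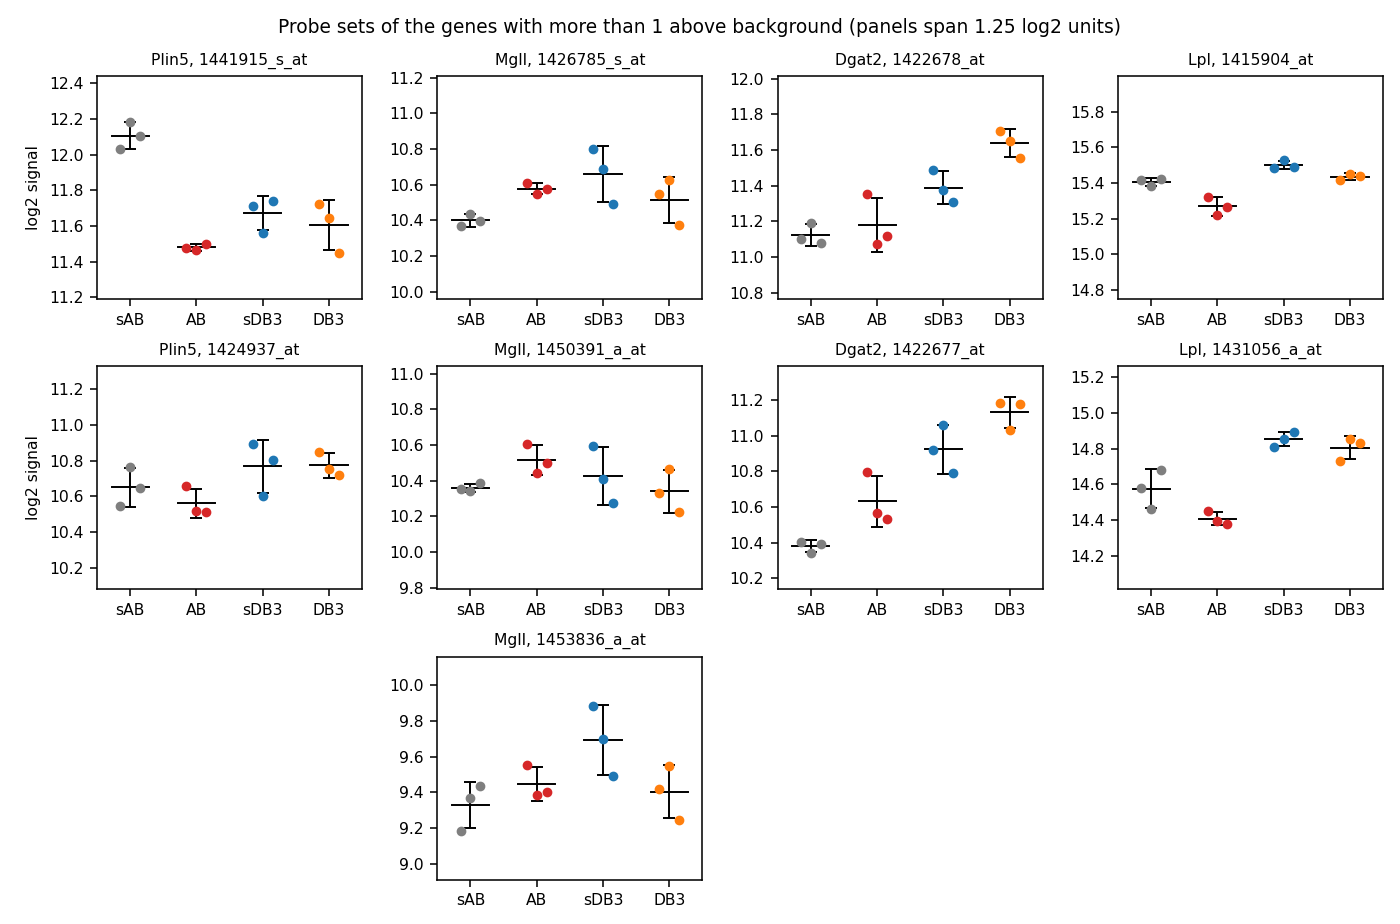
Log2 signal (vertical axes, of equal span in every panel) by group for every probe set above background of the 4 genes that have more than 1, titled with gene and probe set. Points are mice, bars the mean and SD of 3. The upper Plin5 probe set fell from 12.11 in sAB to 11.48 in AB and the lower one lay at 10.65 and 10.56, whereas both Dgat2 probe sets were highest in DB3.

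Of 66 further genes of droplet and triglyceride metabolism, 51 were tested. In AB against sAB 7 were higher and 5 lower, beside 19.7% of all genes called, with a median log2 difference of 0.049 beside 0.012 for all genes. In AB against sDB3 the balance was the other way, 3 higher and 11 lower, beside 22.0% of all genes. For the debanded mice, DB3 against sDB3 gave 1 higher gene beside 6.36% of all genes, and DB3 against AB 4 higher and 1 lower beside 9.16%. The shams, sDB3 against sAB, gave 8 higher and 2 lower beside 17.8%. Of the 12 genes called in AB against sAB, 6 lost the call without the arrays high in Adipoq (Fitm1, Fitm2, Aup1, Gpat4, G0s2 and Prkaca) and 8 without those high in atrial markers (Fitm1, Aup1, Agpat1, Gpat4, G0s2, Prkaca, Lrp1 and Srebf1), so that Ces1d, Lipa and Ppard were called in both.

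Among 10 droplet coat and biogenesis genes tested, 1 rose and 2 fell in AB against sAB (median -0.095), beside 19.7% of all genes called. Fitm2 (-0.57 ± 0.10, adjusted p = 0.00325) and Fitm1 (-0.54 ± 0.13, adjusted p = 0.0149), which help droplets bud from the endoplasmic reticulum, fell, and Fitm1 lost its call without AB replicate 2 (adjusted p = 0.0595). Both were also lower in AB than in sDB3 (-0.44 ± 0.10, adjusted p = 0.0126, and -0.72 ± 0.13, adjusted p = 0.0043). Aup1, a droplet protein that also serves protein quality control, rose by 0.39 ± 0.083 (adjusted p = 0.00905) and was also higher in AB than in sDB3 (0.30 ± 0.083, adjusted p = 0.0283).

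Among 10 lipolysis genes tested, 1 rose and 3 fell in AB against sAB (median -0.24), beside 19.7% of all genes called. Ces1d, a carboxylesterase that hydrolyses triglyceride, had the largest difference, with log2 signals of 11.02, 10.56 and 10.61 in sAB, 9.52, 9.12 and 8.92 in AB, between 9.97 and 10.28 in sDB3 and between 10.01 and 10.14 in DB3. The AB mice lay below all others and sAB above all others. It fell by 1.54 ± 0.16 on the log2 scale in AB against sAB (adjusted p = 0.000235), was lower in AB than in sDB3 (-0.90 ± 0.16, adjusted p = 0.00472), and differed by -0.0041 in DB3 against sDB3 (adjusted p = 0.99), the difference between the effects being 1.54 ± 0.23 (adjusted p = 0.0075). G0s2, the protein that blocks the Pnpla2 lipase, fell by 0.48 ± 0.14 (adjusted p = 0.0372), a call lost without sAB replicate 2 or 3 or any 1 AB array (adjusted p up to 0.122), and was lower in AB than in sDB3 too (-0.75 ± 0.14, adjusted p = 0.00534). Lipa, the lysosomal acid lipase, rose by 0.58 ± 0.10 (adjusted p = 0.00365), but AB against sDB3 gave 0.23 ± 0.10 (adjusted p = 0.132) and sDB3 itself was 0.35 ± 0.10 higher than sAB (adjusted p = 0.0409). Prkaca, the catalytic kinase subunit that activates lipolysis, fell by 0.32 ± 0.077 (adjusted p = 0.0164), which ended without the second sAB or the first AB mouse (largest adjusted p 0.057) and with the mean of its probe sets (-0.03, adjusted p = 0.82), and AB against sDB3 gave -0.28 ± 0.077 (adjusted p = 0.0257). Abhd5, the coactivator of Pnpla2, gave -0.26 ± 0.095 (adjusted p = 0.0766).

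Among 11 triglyceride synthesis genes tested, 2 rose in AB against sAB (median 0.079), beside 19.7% of all genes called. Agpat1 (0.48 ± 0.12, adjusted p = 0.0202) and Gpat4 (0.31 ± 0.097, adjusted p = 0.048), acyltransferases of the earlier steps, rose. The Agpat1 call ended without sAB replicate 1 and without AB replicate 2 or 3 (largest adjusted p 0.0703), and that of Gpat4 in 10 of the 12 fits that left out 1 array (adjusted p up to 0.158), after quantile normalization (adjusted p = 0.112) and after median centring (adjusted p = 0.116). Against sDB3 the sign turned, with Gpat4 lower in AB (-0.36 ± 0.097, adjusted p = 0.0244) and Agpat1 at -0.14 ± 0.12 (adjusted p = 0.445). Both were also higher in sDB3 than in sAB (0.62 ± 0.12, adjusted p = 0.0096, and 0.67 ± 0.097, adjusted p = 0.00264).

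Among 8 lipoprotein lipase partners and uptake genes tested, 1 rose in AB against sAB (median 0.21), beside 19.7% of all genes called. Lrp1, a receptor for lipoprotein remnants, rose by 0.67 ± 0.16 (adjusted p = 0.016), which ended without AB replicate 2 or 3 (adjusted p up to 0.0674) and with the mean of its probe sets (0.27, adjusted p = 0.421), and AB against sDB3 gave 0.56 ± 0.16 (adjusted p = 0.0327). Gpihbp1, the endothelial protein that carries lipoprotein lipase to the vessel lumen, gave 0.049 in AB against sAB (adjusted p = 0.841), and Angptl4, an inhibitor of that lipase, 0.90 (adjusted p = 0.23).

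Among 12 transcriptional regulators tested, 2 rose in AB against sAB (median 0.16, beside 19.7% of all genes called), 1 rose in DB3 against sDB3 (median 0.21, beside 6.36%) and 4 rose in sDB3 against sAB (median 0.44, beside 17.8%). Ppard, the PPAR form abundant in muscle, had log2 signals of 6.17, 5.92 and 5.99 in sAB, 7.30, 7.18 and 7.05 in AB, 7.08, 6.92 and 6.80 in sDB3 and 7.28, 7.18 and 7.32 in DB3. Every sAB mouse lay below the 9 others, the split that BioC also shows. It rose by 1.15 ± 0.098 in AB (adjusted p = 6.93e-05) and by 0.91 ± 0.098 in sDB3 (adjusted p = 0.00051), each against sAB, while AB against sDB3 gave 0.24 ± 0.098 (adjusted p = 0.0986). Srebf1, a driver of lipid synthesis, rose by 0.65 ± 0.18 in AB (adjusted p = 0.0297), a call lost without sAB replicate 1 or 3 or any 1 AB array (adjusted p up to 0.104), and AB against sDB3 gave 0.17 ± 0.18 (adjusted p = 0.541). Foxo1, a fasting-responsive regulator of Pnpla2, was 0.35 ± 0.093 higher in DB3 than in sDB3 (adjusted p = 0.0498), and this ended in 11 of the 12 fits that left out 1 array (adjusted p up to 0.128) and under both other scalings. Klf15, a fasting and glucocorticoid-responsive factor named here after its values were seen, was higher in sDB3 than in sAB (0.70 ± 0.18, adjusted p = 0.0259) and in DB3 than in AB (1.28 ± 0.18, adjusted p = 0.00318).

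**Figure D4:**
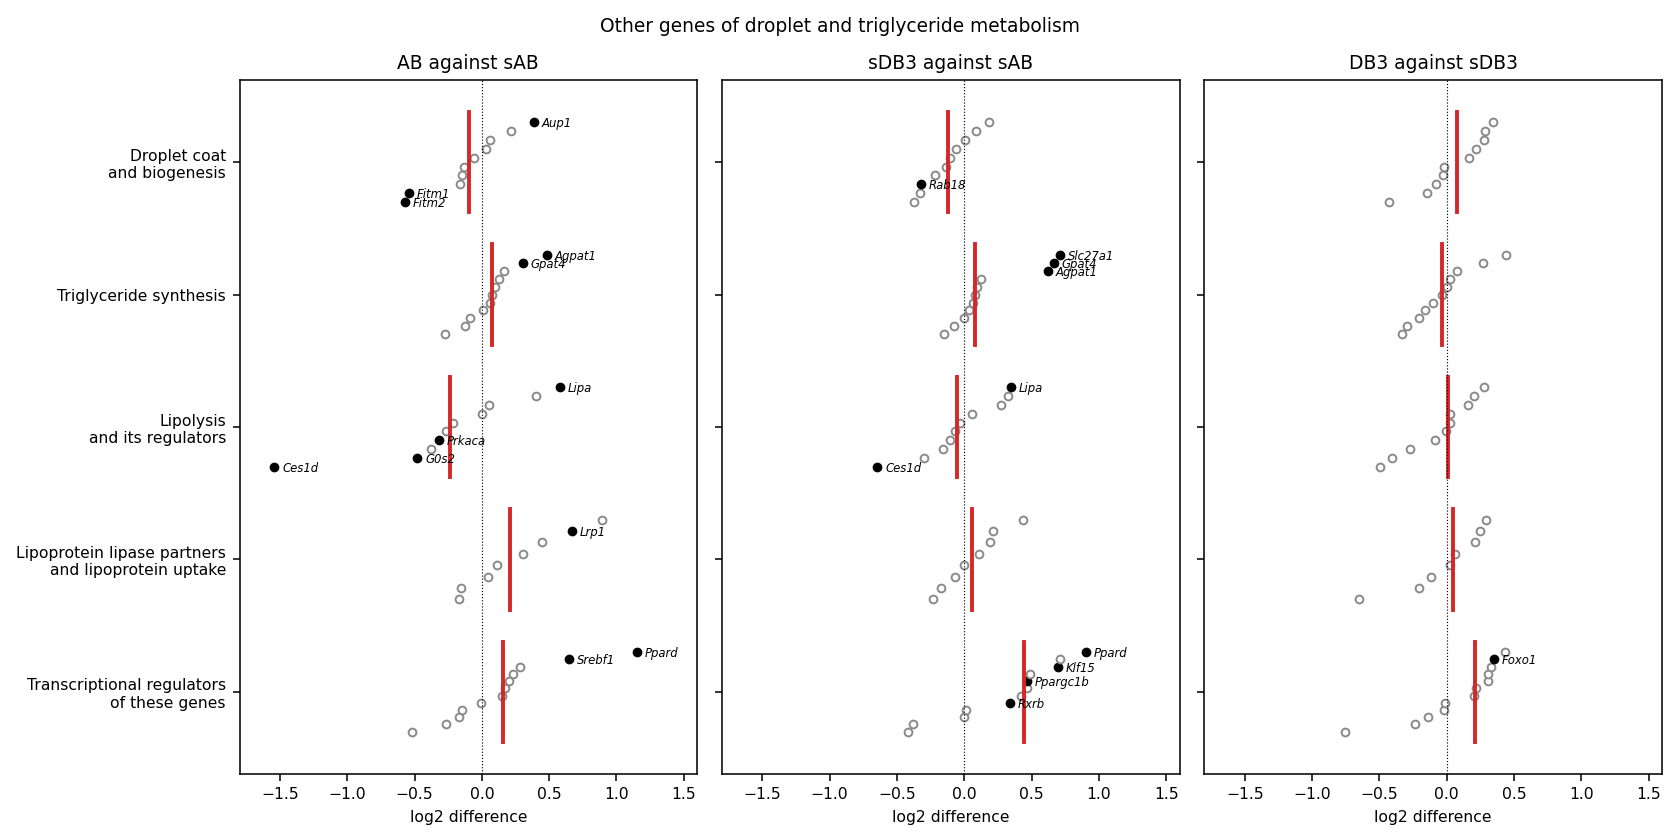
Log2 difference (horizontal axes) of 51 further genes in 5 groups, in AB against sAB, sDB3 against sAB and DB3 against sDB3. Each point is a gene, filled and named where its limma adjusted p is under 0.05, and red lines are the group medians. Ces1d in AB against sAB, at -1.54, lies farthest from 0, and Foxo1 is the single filled point in DB3 against sDB3.

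Plin4, Lipe and other members are also genes of fat cells, so adipocyte markers were read on the same arrays. Of 12 markers with a probe set, 5 were above background on at least 3 arrays, and 3 of those, Cidea, Pparg and Aqp7, were above it on all 12, including those without Adipoq. The defining markers Lep, Ucp1 and Cidec, and also Retn, Acvr1c, Nnat and Lgals12, stayed below 4, with Cidec at up to 2.90. Adipoq, the adiponectin gene, had log2 signals of 2.32, 4.15 and 4.90 in sAB, 3.71, 2.28 and 2.32 in AB, 5.21, 5.28 and 2.52 in sDB3 and 3.73, 6.50 and 2.30 in DB3. Car3, abundant in fat and some muscle, ran from 3.04 to 9.95 and was likewise highest on DB3 replicate 2. The range of the summed list was 10.9 to 11.0 in sAB, 10.6 to 10.9 in AB, 10.8 to 11.0 in sDB3 and 10.6 to 11.4 in DB3. Within sDB3, Plin4 was high on the 2 arrays with Adipoq at 5.21 and 5.28 and low on replicate 3, whereas within DB3 it was lowest on the array with the highest Adipoq. Plin4 was highest on the array with the highest Adipoq in AB but not in sAB. Lipe rose in the order of Adipoq within sAB, AB and sDB3. Within DB3, Lipe was highest on replicate 1 and not on replicate 2, where Adipoq was highest. Without the 5 arrays with Adipoq above a log2 value of 4, which leaves 1 mouse each in sAB and sDB3, Plin4 in DB3 against AB gave 0.64 (adjusted p = 0.0386), Lipe 0.57 (adjusted p = 0.163) and Dgat2 0.45 (adjusted p = 0.1). All calls of members but that of Plin4 in DB3 against AB ended without these arrays. That comparison then set DB3 replicates 1 and 3, with Adipoq at 3.73 and 2.30, against AB replicates 1, 2 and 3, at 3.71, 2.28 and 2.32. The part of fat cells in these results, that of Plin4 included, was not tested.

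Other marker lists moved with the groups too. The summed level of 3 blood markers was higher on every DB3 array (8.37 to 9.56) than on every AB array (7.66 to 8.06), the comparison in which Plin4, Lipe and Dgat2 were called, with Alas2 and Slc4a1 above background and Hba-a1 at the floor of 2.23. That of 8 skeletal muscle markers was lower on all sAB arrays (14.34 to 14.40) than on the others (14.42 to 14.62), the split of Pnpla2 and Ppard. Only 2 of the 8, Mylpf and Ckm, were above background on 3 or more arrays, and heart muscle also expresses Ckm. Of these 2, 1 was called lower and 0 higher in AB against sAB (median -0.18), against the direction of the sum. In sDB3 against sAB 1 was called higher and 0 lower (median -0.095). The shares of all genes called were 19.7% and 17.8%. Of 9 endothelial markers, 3 were called higher and 0 lower in AB against sDB3, beside 22.0% of all genes called. Their summed level overlapped between these groups. The summed macrophage level reached 13.92 in sAB and 13.08 in the other groups, but sAB overlapped them. The part of these marker lists in the results was not tested.

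**Figure D5:**
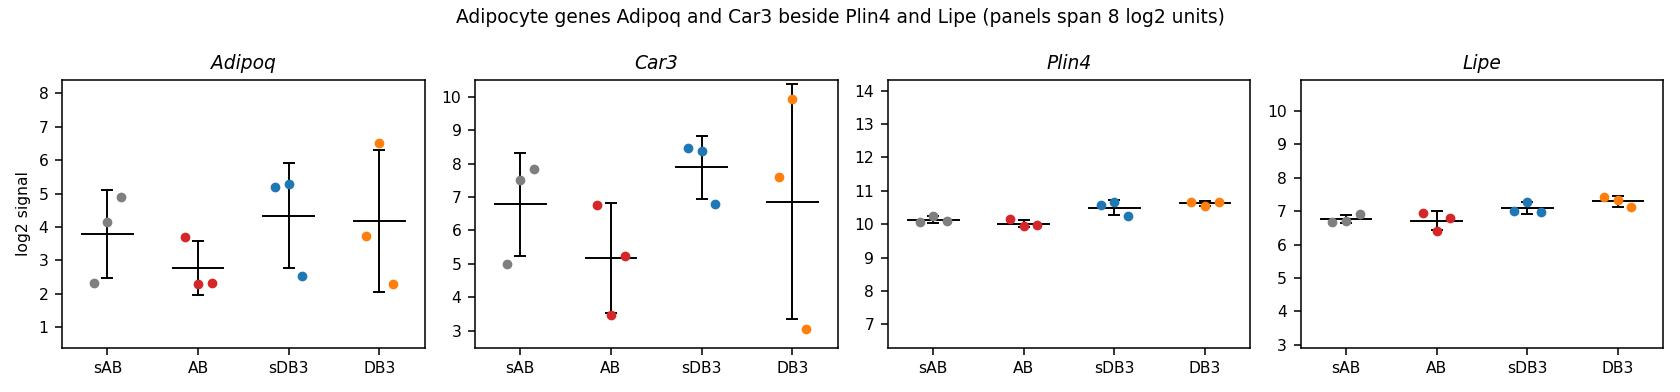
Log2 signal (vertical axes, of equal span in every panel) of the adipocyte genes Adipoq and Car3 and of Plin4 and Lipe, by group. Points are mice in order of replicate number, bars the mean and SD of 3. Adipoq runs from 2.28 to 6.50, whereas Plin4 stays between 9.94 and 10.67 and Lipe between 6.40 and 7.44.

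For the 2 members with the largest F statistic over the 4 groups, Plin5 and Dgat2, the genes with the closest pattern over the 12 arrays were named as a description. The 12 points fall into 4 groups that share arrays with the comparisons above. For Plin5 they were Cux2 (Pearson r = 0.964), Kbtbd3 (0.953) and Mcur1 (0.952), all highest in sAB and lowest in AB. For Dgat2 they were Tor1aip1 (0.947), Pdxdc1 (0.938) and Myh14 (0.938), whose group means stepped up from sAB through AB and sDB3 to DB3, as those of Dgat2 did.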

How the data were processed

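The deposited table gives, for 12 arrays, log2 signals of 45101 probe sets that the authors made with GCRMA, per the submitters' processing notes; version and build are not stated in what was used here. Values run from a floor of 2.23 to 16.6, and differences near the floor are compressed. Gene names came from the platform annotation, updated by gene ID. Probe sets above 4 on at least 3 arrays were kept, 1 per gene. One limma model (3.58.1, R 4.3.3) of all 4 groups gave two-sided p-values, with Benjamini-Hochberg adjustment across 10435 genes and a threshold of 0.05. They set each difference against the spread between mice within groups, pooled over the 4 groups and drawn toward that of other genes. An exact permutation test of 3 against 3 cannot go below 0.1. The code was tested on simulated data. Alternatives changed the filter, probe set rule, scaling, variance model and arrays, and those without arrays high in Adipoq or atrial markers were chosen after seeing the data.

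The 10 genes, the lists and the comparison of AB with sDB3 were chosen with earlier results of these data known. Of each list, up to 4 genes with the largest change among those past the threshold in AB against sAB or DB3 against sDB3 are named. Klf15, Abhd5, Gpihbp1, Angptl4 and the other genes named in the plot of related genes were chosen after their values were seen. Listed genes without a probe set of their own symbol were not analysed here.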

Additional observations from a re-analysis of the deposited data

Results flagged for a closer look

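The Plin5 log2 difference was -0.63 in AB against sAB and -0.068 in DB3 against sDB3, and the DB3 effect minus the AB effect was 0.56 ± 0.12 by the interaction term (limma adjusted p = 0.026, n = 3 per group). The second Plin5 probe set gave 0.096 for the same difference (adjusted p = 0.713 over all probe sets).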

How the results depend on the processing

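No paired analysis was possible because replicate numbers follow the order of deposit and pair no mice. Leaving out 1 array at a time gave 1139 to 2119 genes called (2058 with all) and 1 to 3 members in AB against sAB, with 170 to 535 (664) and 1 for the debanded pair (DB3 against sDB3), 152 to 567 (630) and 0 to 1 in the difference between effects, 967 to 1945 (1861) and 2 to 4 in sDB3 against sAB, 365 to 1031 (956) and 1 to 3 in DB3 against AB, and 1124 to 2354 (2298) and 1 to 6 in AB against sDB3. Without the arrays high in Adipoq, and without those high in atrial markers, the same 6 comparisons called 617 and 786, 3 and 6, 0 and 3, 2 and 19, 301 and 203, and 1 and 20 genes, and 0 and 1, 0 and 0, 0 and 0, 0 and 0, 1 and 1, and 0 and 0 members. These fits hold 7 and 8 arrays, and the lone arrays are assumed to vary like the rest. Testing every probe set called 3391 in AB against sAB, 976 in the difference between effects and 2987 in sDB3 against sAB. Without the dim filter, DB3 against sDB3 called 323 genes and the difference between effects 338. In DB3 against sDB3 quantile normalization called 199 genes, the unmoderated analysis of variance 427, and a fit of those groups alone 0 genes and 0 members. Fits of the compared groups alone called 571 genes for sDB3 against sAB and 629 for DB3 against AB. Such a fit was not run for the difference between effects, which uses all groups. In the difference between effects the mean of probe sets called 0 members. In sDB3 against sAB 4 members passed with a filter at 6 and with quantile normalization, and 5 with median centring and with a trended, robust variance.

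Of the differences that changed sign, none was called. Median centring gave Plin2 -0.063 and Pnpla2 -0.016 in DB3 against sDB3 and Dgat1 -0.015 in the difference between effects, and quantile normalization gave Lpl 0.012 and Dgat1 -0.025 in the same comparisons. Without arrays high in Adipoq, Lipe was 0.020 in AB against sAB and Mgll 0.088 in AB against sDB3, and without those high in atrial markers Mgll was 0.089. Leaving out single arrays ranged from -0.18 to 0.095 for Lipe and from -0.030 to 0.11 for Dgat2 in AB against sAB. For DB3 against sDB3 it ranged from -0.010 to 0.14 for Plin2, from -0.0017 to 0.22 for Plin4 and from -0.13 to 0.011 for Plin5. It ranged from -0.0013 to 0.10 for Dgat1 in the difference between effects, from -0.12 to 0.0064 for Mgll in DB3 against AB and from -0.078 to 0.00079 for Plin2 in AB against sDB3. The cause of these changes was not tested.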
